A study of Homo sapiens with 4 samples.

Results

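The comparison described here sets the libraries numbered 2 against the libraries numbered 1 in MM134, an estrogen receptor positive cell line from an invasive lobular breast carcinoma. All 4 libraries of the study enter it, chosen by their titles: HER2 WT 1 and HER2 L755S 1 as number 1, and HER2 WT 2 and HER2 L755S 2 as number 2, with the line as a block. HER2 is the product of ERBB2, a receptor tyrosine kinase of growth factor signalling, and L755S is a substitution in its kinase domain. The way HER2 was introduced was not given in the sources used here. Both lines, and so both numbers, were grown to 70% confluence and then kept for 7 days without phenol red or estrogen in medium holding 5% charcoal-stripped serum, and no group received estrogen. The labels give the number no meaning and name no day, operator or batch. The deposited tables of both number 2 libraries carry the word merged in their names, and what was merged is not stated. The number, the form of the deposited table and any unrecorded batch therefore cannot be told apart. Since the labels do not say that libraries came from separate cultures, p-values here reflect nothing beyond the scatter of these 4 libraries, which could be technical, and the model has 1 residual degree of freedom.

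Cells handled at separate times can differ in programs that react within minutes to hours. Immediate early genes such as FOS and EGR1 are transcribed without new protein synthesis after growth factors, serum or mechanical stress, and their mRNAs decay quickly. The ATF4 program answers shortage of amino acids and other stresses, NRF2 answers oxidants, and the mitotic genes follow the share of cells in G2 and M phase. Mitochondrial transcripts come from the small circular genome of the organelle and are read from both of its strands. Libraries can also differ in how well fragments rich in G and C are recovered, which touches genes of every pathway at once.

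The libraries held 27423247 to 31088422 expected counts. A list of luminal lineage factors and receptors summed to between 13880 and 18725 CPM (counts scaled to a common library total). This sum is not a measure of luminal identity alone. It includes FGFR1 (1683 to 4398 CPM) and ERBB2 (1126 to 2478 CPM), the gene of HER2. Its other members ranged from KRT19 (2855 to 4161 CPM) and GATA3 (677 to 981 CPM) down to MUC1 (0.0729 to 4.38 CPM). No leukocyte marker of 19 passed the filter on low counts, and 6 of them, CD3D, CD3E and MS4A1 included, were at 0 in all 4 libraries. Of 60675 genes, 16538 were tested. By edgeR's quasi-likelihood test with Benjamini-Hochberg adjustment, 1572 genes (9.51%) were higher and 1885 (11.4%) were lower in number 2 at an adjusted p under 0.05. The change passed 2-fold in 328 higher and 533 lower genes, and 4-fold in 44 and 79. For comparison, 2058 genes (12.4%) were called for the line in the same fit, and 469 were called for both.

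These counts rested on the model. With no scaling beyond library totals edgeR called 879 higher and 2013 lower genes, and the median difference over all genes moved by -0.0461 in HER2 WT and -0.115 in HER2 L755S. With genes of chromosome M left out, 1086 were higher and 1050 lower. With the line left out of the design edgeR called 0 genes, with 2854 at an unadjusted p under 0.05, while DESeq2 called 412 higher and 395 lower. Leaving out any 1 library, HER2 WT 1, HER2 L755S 1, HER2 WT 2 or HER2 L755S 2, is possible only without the line term and gave 0 calls each time by edgeR, with 1047 to 2495 genes at an unadjusted p under 0.05. Without the filter on low counts edgeR also called 0 genes, with 5010 at an unadjusted p under 0.05.

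GC content moved with the difference across nearly the whole transcriptome. Over 10823 protein-coding genes of at least 5 CPM, Spearman's rho between the GC content of a gene's transcripts and its difference between numbers was -0.778 within HER2 WT and -0.758 within HER2 L755S, as a description over genes that share 2 libraries each. In the fifth of genes with the lowest GC content, the median difference in log2 CPM of number 2 minus number 1 was 0.49 within the HER2 WT pair and 0.51 within the HER2 L755S pair, and 39.8% of these genes were called higher. In the fifth with the highest GC content the medians were -0.68 and -0.55, and 55.6% were called lower. Between the lines at the same number no such gradient was seen, with rho of -0.0957 within number 1 and 0.0117 within number 2. GC content had a median of 41.5% in genes called higher, 62.0% in genes called lower and 49.8% in genes not called. A fit with a GC offset, which takes out of each library a smooth function of GC content, called 113 genes higher (0.683%) and 99 lower (0.599%), and 95 and 89 of these were also called without it. For the lists and the leading genes below, values with this offset follow those without it. The offset was chosen after the data were seen.

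**Figure D1:**
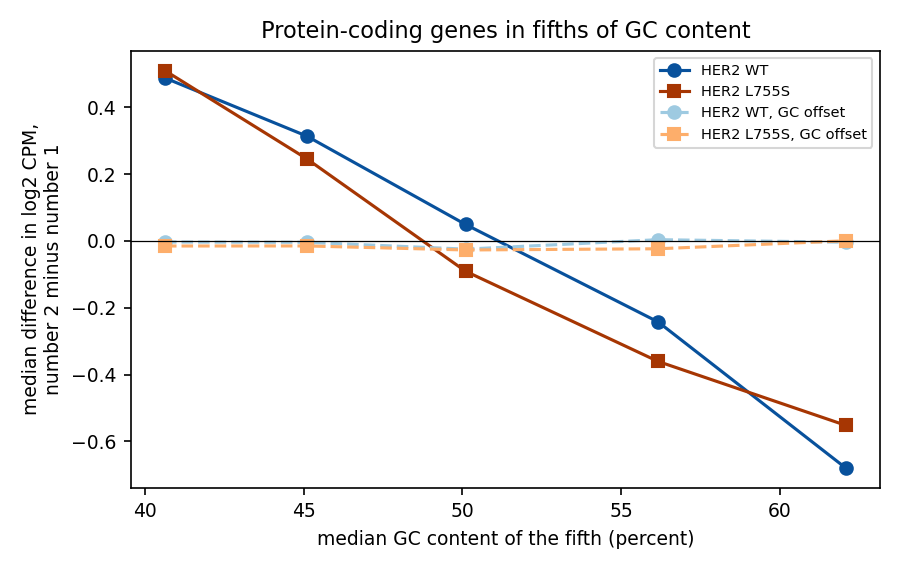
Median difference in log2 CPM of number 2 minus number 1 (vertical axis) against the median GC content in percent (horizontal axis) for 5 equal groups of the protein-coding genes, in HER2 WT (circles) and HER2 L755S (squares). Solid lines, without the offset, fall from 0.49 and 0.51 to -0.68 and -0.55, and dashed lines, with the GC offset, lie near 0.

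The 2 lines shared the direction of the difference for most genes, and the pairs compared hold no library in common. Over all tested genes 72.5% had the same sign in both lines, with Pearson's r of 0.425 and Spearman's rho of 0.533. Over the 11473 genes of at least 5 CPM on average the share was 77.7%, with r of 0.649 and rho of 0.699. After the GC offset it was 57.9% over all tested genes and 59.2% over those of at least 5 CPM, where r was 0.333. Of 294 genes of at least 5 CPM that were more than 2-fold higher in number 2 within HER2 WT, 92.2% were also higher within HER2 L755S, and 26.2% passed 2-fold there. Of 613 that were more than 2-fold lower in HER2 WT, 95.3% were lower in HER2 L755S and 19.9% passed 2-fold. Across the 11473 genes of at least 5 CPM the line carried 46.9% of the sum of squares of log2 CPM, the number 43.8% and the remainder 9.31%. They were 64.4%, 23.7% and 11.9% when the GC offset was used.

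**Figure D2:**
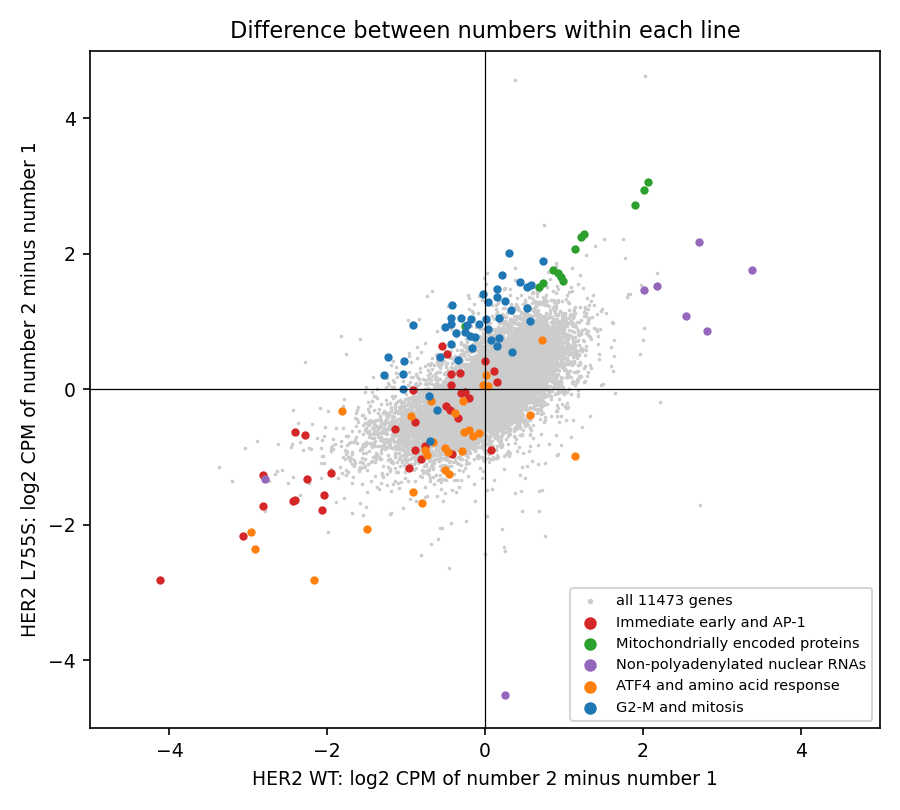
Each point is a gene, with the difference in log2 CPM of number 2 minus number 1 in HER2 WT on the horizontal axis and in HER2 L755S on the vertical axis. Grey points are 11473 genes of at least 5 CPM, of which 6 lie outside the axes, and colours mark the tested members of 5 lists. Of the immediate early genes 26 of 35 lie below 0 in both lines, 12 of the 13 mitochondrial genes lie above 0 in both, and G2-M genes lie high in HER2 L755S and around 0 in HER2 WT.

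Immediate early and AP-1 genes stood lower in number 2 in both lines. Of 35 tested members, 16 fell (beside 11.4% of all tested genes called lower) and 0 rose (beside 9.51% called higher). At an unadjusted p under 0.05 edgeR had 0 members higher and 18 lower, and DESeq2 and limma-voom called 0 higher and 13 and 15 lower. The median log2 fold change of the list was -0.74, with -0.82 within HER2 WT and -0.63 within HER2 L755S, against -0.03 over all tested genes. In the fit with the GC offset 8 fell and the median was -0.28. Summed over the list, the share of counts was 0.157% in both number 1 libraries and 0.0687% and 0.0739% in number 2 (HER2 WT first).

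Promoters of called members are shown because some hold the elements that serum response factor and CREB-type factors are known to bind. The sequences are the 250 bases before the start in the RefSeq table (GRCh38.p14), with matches in capitals, 5′ to 3′. The CArG box of serum response factor and the palindrome TGACGTCA were searched on both strands, and no match of one overlaps the other.
EGR1 (chr5:138465229-138465478, plus strand): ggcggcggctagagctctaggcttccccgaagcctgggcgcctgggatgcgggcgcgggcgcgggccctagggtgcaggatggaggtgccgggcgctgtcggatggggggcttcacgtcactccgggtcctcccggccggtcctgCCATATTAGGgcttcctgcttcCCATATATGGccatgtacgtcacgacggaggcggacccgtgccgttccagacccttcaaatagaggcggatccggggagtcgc
JUND (chr19:18281623-18281872, minus strand): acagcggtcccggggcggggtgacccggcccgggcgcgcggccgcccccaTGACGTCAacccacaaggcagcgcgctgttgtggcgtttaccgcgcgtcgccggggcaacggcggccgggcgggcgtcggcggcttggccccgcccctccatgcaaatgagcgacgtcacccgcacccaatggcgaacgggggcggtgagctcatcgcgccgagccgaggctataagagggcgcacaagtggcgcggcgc
DUSP1 (chr5:172771196-172771445, minus strand): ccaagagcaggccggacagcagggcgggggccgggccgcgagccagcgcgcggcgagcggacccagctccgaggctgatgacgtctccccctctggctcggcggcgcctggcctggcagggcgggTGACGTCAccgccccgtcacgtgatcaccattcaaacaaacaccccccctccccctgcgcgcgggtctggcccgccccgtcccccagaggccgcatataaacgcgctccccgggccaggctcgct
A CArG box was found 2 times in EGR1 and TGACGTCA 1 time each in JUND and DUSP1. Of 14 called members with a promoter listed there, 1 held a CArG box and 2 held TGACGTCA, and among 14 other members these counts were 1 and 0. Of all 35116 promoters listed, 1.16% held a CArG box and 1.65% held TGACGTCA. A match is a description of the letters and no sign of binding.

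EGR1 (ENSG00000120738, GRCh38 chromosome 5, 138465490 to 138469315), a zinc finger transcription factor, stood in number 1 at 98.6 CPM (HER2 WT) and 243 CPM (HER2 L755S). In number 2 it stood at 5.65 and 34.7 CPM in the same order. Both number 2 libraries lay below both number 1 libraries, a separation that 26.3% of all tested genes had in this direction and 24.2% in the other, with a log2 fold change of -3.44 (SE 0.25, edgeR, Benjamini-Hochberg adjusted p = 3.5e-10) and -3.18 with the GC offset. FOS (chromosome 14, 75278774 to 75282230), which pairs with JUN proteins in the AP-1 factor, had 108 and 52.5 CPM in number 1 and 12.9 and 11.6 CPM in number 2 (HER2 WT first here and below). The numbers did not overlap, and the log2 fold change was -2.63 (SE 0.22, edgeR adjusted p = 1.5e-08), or -2.15 with the offset.

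Its partners moved with it. JUN was at 144 and 120 CPM in number 1 and at 26.5 and 38.3 CPM in number 2, a log2 fold change of -2.04 (SE 0.21, edgeR adjusted p = 2.0e-07). JUNB was at 114 and 141 CPM against 16.3 and 42.7 CPM, and JUND at 92.1 and 58.5 CPM against 18.9 and 36.6 CPM. None of these 3 overlapped between numbers. JUN and JUNB were also called with the GC offset, at -1.72 and -1.47, while JUND, at a GC content of 69.7%, had -0.45 (edgeR adjusted p = 0.37). FOSB fell by 1.79 on the log2 scale (-1.35 with the offset, edgeR adjusted p = 0.070), and FOSL2 had 28.1 and 37.0 CPM against 29.5 and 19.8 CPM and was not called.

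Among regulators that shut the response down, DUSP1, a phosphatase of MAP kinases, was at 54.1 and 48.4 CPM in number 1 and at 12.9 and 14.1 CPM in number 2. Its numbers did not overlap, at a log2 fold change of -1.92 (SE 0.21, edgeR adjusted p = 6.7e-07) and -1.68 with the GC offset. IER2, BTG2 and the nuclear receptor gene NR4A1 also fell with and without the offset, by 2.02, 0.92 and 1.57 on the log2 scale without it and by 1.29, 0.85 and 0.99 with it. DUSP2, CYR61, KLF2, KLF4 and ZFP36, which encodes a protein that destabilises AU-rich mRNAs, fell without the offset only. ATF3 did not follow: it had 8.001 and 8.14 CPM in number 1 and 5.47 and 12.7 CPM in number 2, with -0.55 within HER2 WT and 0.64 within HER2 L755S. EGR3, KLF6, KLF10, IER3 and MCL1 were tested and not called.

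**Figure D3:**
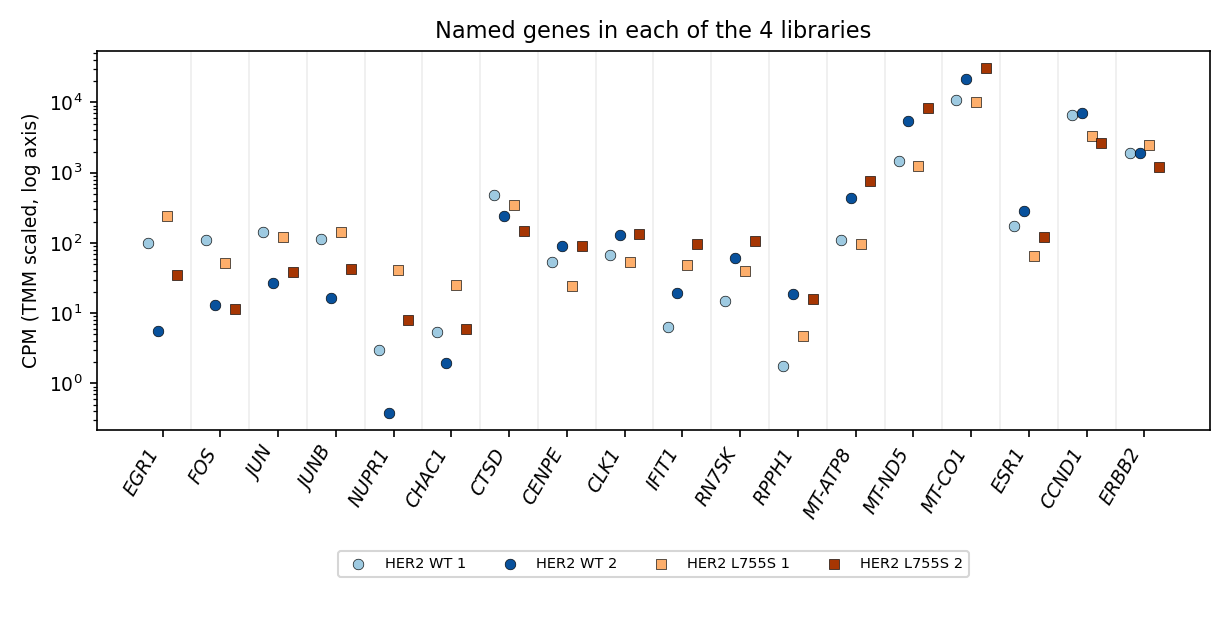
CPM of 18 named genes (log axis) in HER2 WT 1 and 2 (light and dark circles) and HER2 L755S 1 and 2 (light and dark squares), 1 point per library. EGR1, FOS, JUN and JUNB lie lower in both number 2 libraries, and MT-ATP8 and MT-ND5 higher.

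Delayed early genes and targets of SRF and YAP had calls at about the shares of all tested genes (9.51% higher, 11.4% lower). Of 22 tested genes of the delayed early list, SPRED1 and SPRED2 rose and VGF fell, and of 18 targets of SRF and YAP CYR61 and TPM2 fell. With the offset 0 of either list were called (at an unadjusted p under 0.05 edgeR had 4 higher and 2 lower in the delayed early list, and 0 and 1 among the targets). ID1 and ID3, targets of BMP signalling that block basic helix-loop-helix factors, were named after their values were seen. ID3 had 255 and 188 CPM against 85.6 and 83.6 CPM, and ID1 had 122 and 109 CPM against 31.7 and 58.4 CPM. Neither overlapped between numbers, and both were called with the GC offset at -1.05 and -1.03 (edgeR adjusted p = 0.0020 and 0.0079).

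Mitochondrially encoded transcripts were higher in number 2. Chromosome M accounted for 4.40% and 4.03% of counts in number 1, and for 8.83% and 13.5% in number 2. Of the 13 protein genes 11 rose and 0 fell, beside 9.51% and 11.4% of all tested genes. DESeq2 called 8 of them higher and limma-voom 12, and each called 0 lower. The median was 1.32 (0.99 in HER2 WT, 1.77 in HER2 L755S). The fold was nearly as large with the GC offset, at a median of 1.17 (0.72 in HER2 WT, 1.62 in HER2 L755S). In that fit 3 passed the adjusted threshold, MT-ATP8, MT-ND4L and MT-ND5, and 9 were higher and 0 lower at an unadjusted p under 0.05 in edgeR. In each of the 13 the difference was larger within HER2 L755S than within HER2 WT, which was not tested. Both rRNA genes rose as well, MT-RNR2 by 1.86 and MT-RNR1 by 0.89 on the log2 scale, and with the offset had 1.46 and 0.61, at an unadjusted p under 0.05 for both though neither was called (edgeR adjusted p = 0.29 and 0.36).

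**Figure D4:**
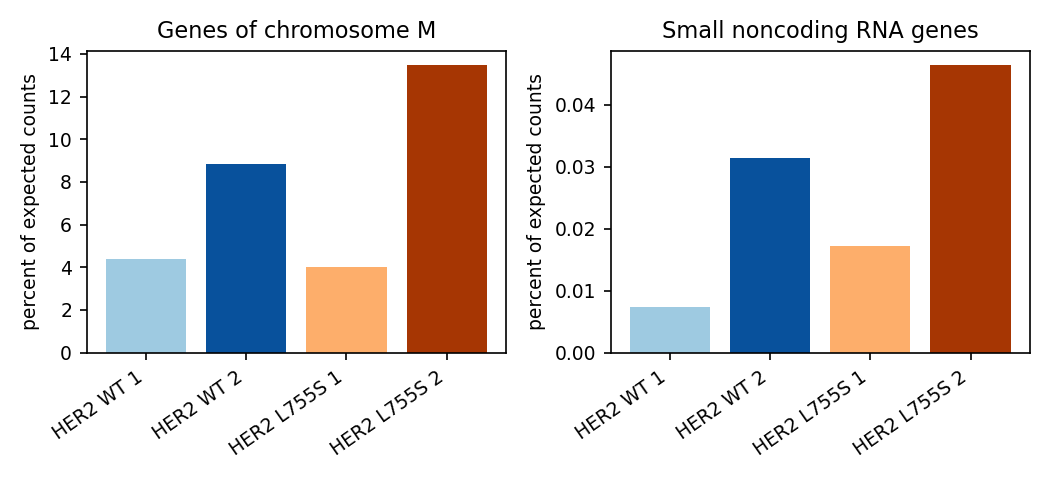
Percent of expected counts in genes of chromosome M (left) and in small noncoding RNA genes (right), 1 bar per library. Both shares are higher in number 2 than in number 1 of the same line, and mitochondrial counts reach 13.5% in HER2 L755S 2.

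MT-ND5 (chromosome M, 12337 to 14148), a core subunit of respiratory complex I, had 1466 and 1265 CPM in number 1 and 5476 and 8305 CPM in number 2. Its log2 fold change was 2.31 (SE 0.34, edgeR adjusted p = 7.0e-05), and 2.00 with the GC offset (edgeR adjusted p = 0.013). MT-ATP8 and MT-ND4L share an mRNA and overlap in sequence with MT-ATP6 and MT-ND4, so that the division of reads between partners is uncertain. MT-ATP8 had 109 and 98.2 CPM against 442 and 753 CPM, and its log2 fold change was 2.48 (1.94 with the offset), beside 1.31 for MT-ATP6 (0.97). MT-ND4L had 2.57 (2.17 with the offset), beside 1.61 for MT-ND4 (1.27).

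Other subunits had smaller changes. MT-CYB of complex III rose by 1.78 on the log2 scale, MT-ND2 by 1.73, MT-ND1 by 1.32 and MT-ND6, the only protein gene on the light strand, by 1.31. MT-CO2 and MT-CO3 of cytochrome oxidase rose by 1.15 and 1.09. With the offset these 6 genes had 1.55, 1.34, 1.17, 0.90, 0.92 and 0.88 in the same order, and none was called. MT-CO1 had 1.29 and was not called (edgeR adjusted p = 0.056), and MT-ND3 had -0.26 within HER2 WT and 0.93 within HER2 L755S.

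The nuclear partners of these subunits did not rise as a group. Of 38 nuclear genes of complex I, 2 rose, NDUFB3 and NDUFA5, and 8 fell, beside 9.51% and 11.4% of all tested genes. The median was -0.20, with -0.32 within HER2 WT and 0.052 within HER2 L755S. With the GC offset it was -0.11, with -0.33 and 0.097 in the same order. NDUFS7 had 90.0 and 93.0 CPM in number 1 and 21.5 and 46.9 CPM in number 2, a log2 fold change of -1.52 (SE 0.22, edgeR adjusted p = 4.6e-05). NDUFS8, NDUFV1 and NDUFA11 fell by 1.28, 0.92 and 0.75, and with the offset had -0.66, -0.44 and -0.14. None of the 38 was called in the fit with the GC offset (0 higher and 0 lower), where NDUFS7 had -0.69 (edgeR adjusted p = 0.070). At an unadjusted p under 0.05 edgeR had 1 of them higher and 8 lower in that fit. Of 39 genes of complexes II to V 4 rose and 4 fell, about the shares of all tested genes (9.51% and 11.4%). COX5B, with 130 and 132 CPM against 45.0 and 74.9 CPM, was the member called with the offset (log2 fold change -0.96, and -1.17 without it).

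Several noncoding RNAs that lack a poly(A) tail were higher in number 2, in libraries that were poly(A)-selected, while histone mRNAs, which lack one too, were not called higher. Small noncoding RNA genes held 0.00743% and 0.0172% of counts in number 1 and 0.0314% and 0.0464% in number 2. The list of such RNAs held 31 gene models, of which 12 were at 0 in all 4 libraries and 8 were tested. Of these 8, 6 rose in each fit, beside 9.51% of all tested genes without the GC offset and 0.683% with it. Without the offset DESeq2 and limma-voom called 5 and 6 of the 8 higher. In either fit 0 fell (none lower at an unadjusted p under 0.05 in edgeR, and 0 in DESeq2 and limma-voom without the offset). The 8 include a pair of overlapping gene models each for RPPH1 and RMRP. RN7SK, which holds back the elongation factor P-TEFb, had 14.98 and 39.2 CPM against 60.4 and 108 CPM. The numbers did not overlap, and the log2 fold change was 1.73 (SE 0.20, edgeR adjusted p = 1.8e-06), or 2.12 with the offset.

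RPPH1, the RNA of ribonuclease P, had 1.76 and 4.72 CPM in number 1 and 18.5 and 15.97 CPM in number 2. SNORD3A, the U3 RNA of ribosome assembly, had 1.36 and 1.44 CPM against 9.02 and 6.54 CPM. Their log2 fold changes were 2.52 and 2.46, both without overlap, and 3.28 and 2.51 with the offset. RN7SL1, the RNA of the signal recognition particle, had 20.9 and 64.6 CPM against 94.6 and 185 CPM. It lies within the span of RPS29, and the strand setting of the counting is not given, so its reads may be mixed with that gene. The replication-dependent histones, whose mRNAs also lack a poly(A) tail, were not called higher. Of 19 tested 0 rose and HIST2H2BE fell, beside 9.51% and 11.4% of all tested genes. At an unadjusted p under 0.05 in edgeR 0 were higher, and also 0 in DESeq2 and limma-voom. The list took 0.0172% and 0.0133% of counts in number 1 and 0.0128% and 0.0125% in number 2. HIST2H2AA4, a histone gene outside this list that shares sequence with another gene, fell by 2.29 on the log2 scale (1.71 with the offset).

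The ATF4 and amino acid response was lower in number 2 in both lines. Of 29 tested members 16 fell and SLC38A2 alone rose, beside 11.4% and 9.51% of all tested genes. DESeq2 called 10 lower and 1 higher, and limma-voom 16 lower and 1 higher. The median was -0.66 (-0.47 in HER2 WT, -0.78 in HER2 L755S), against -0.03 over all tested genes. In the fit with the GC offset 5 fell, NUPR1, CHAC1, PHGDH, SLC7A11 and ASNS, and the median was -0.39. NUPR1, a stress-induced chromatin protein, went from 2.97 to 0.379 CPM in HER2 WT and from 40.9 to 7.95 CPM in the other line, so that each line was lower in number 2 while the numbers overlapped. Its log2 fold change was -2.53 (SE 0.29, edgeR adjusted p = 1.7e-06), or -2.15 with the offset.

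CHAC1, which degrades glutathione, had 5.47 and 24.8 CPM in number 1 and 1.93 and 5.92 CPM in number 2, a log2 fold change of -1.82 (SE 0.28, edgeR adjusted p = 0.00011) or -1.19 with the offset, with numbers that overlapped. TRIB3, a pseudokinase, and SLC7A5, a carrier of large neutral amino acids, had log2 fold changes of -1.22 and -1.24 (both called), and with the offset had -0.64 and -0.72 (edgeR adjusted p = 0.11 and 0.081). SLC7A11, the cystine carrier, is shared with the NRF2 list and has a low GC content of 38.6%. It had -0.72 without and -1.30 with the offset (edgeR adjusted p = 0.028 and 0.0017). GDF15, a stress-induced cytokine, was at 5.81 and 8.14 CPM against 0.792 and 1.71 CPM, and fell by 2.52 without and 2.03 with the offset.

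Of 29 genes of the NRF2 and redox list 8 fell and GCLM rose, beside 11.4% and 9.51% of all tested genes, at a median of -0.53 (-0.33 with the GC offset). With the offset AKR1C2, AKR1C1 and SLC7A11 fell. AKR1C2, an aldo-keto reductase, had 1.70 and 13.2 CPM in number 1 and 0.482 and 3.47 CPM in number 2, a log2 fold change of -1.89 (SE 0.35, edgeR adjusted p = 0.00065) and -2.15 with the offset, again with overlap between numbers. It shares sequence with AKR1C1, and reads may be split between them. OSGIN1 and KEAP1, the inhibitor of NRF2, fell by 1.28 and 0.73, and with the offset had -0.82 and -0.15 and were not called. NQO1 had 463 and 849 CPM against 325 and 554 CPM and was not called (edgeR adjusted p = 0.052).

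Of 26 lysosome and autophagy genes 9 fell and 0 rose, beside 11.4% and 9.51% of all tested genes. At an unadjusted p under 0.05 in edgeR 0 were higher, and also 0 in DESeq2 and limma-voom. The median was -0.23, and -0.22 with the GC offset (-0.17 in HER2 WT, -0.24 in HER2 L755S). CTSD, a lysosomal protease and estrogen receptor target, had 486 and 343 CPM in number 1 and 241 and 148 CPM in number 2. Its numbers did not overlap, at -1.11 (SE 0.19, edgeR adjusted p = 0.00041). The kinase gene ULK1, the proton pump gene ATP6V0D1 and LAMP1 fell by 0.93, 0.89 and 0.74. In the fit with the GC offset 0 of 26 were called in either direction (6 lower and 0 higher at an unadjusted p under 0.05 in edgeR), and there CTSD had -0.43, ULK1 -0.17, ATP6V0D1 -0.56 and LAMP1 -0.54.

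**Figure D5:**
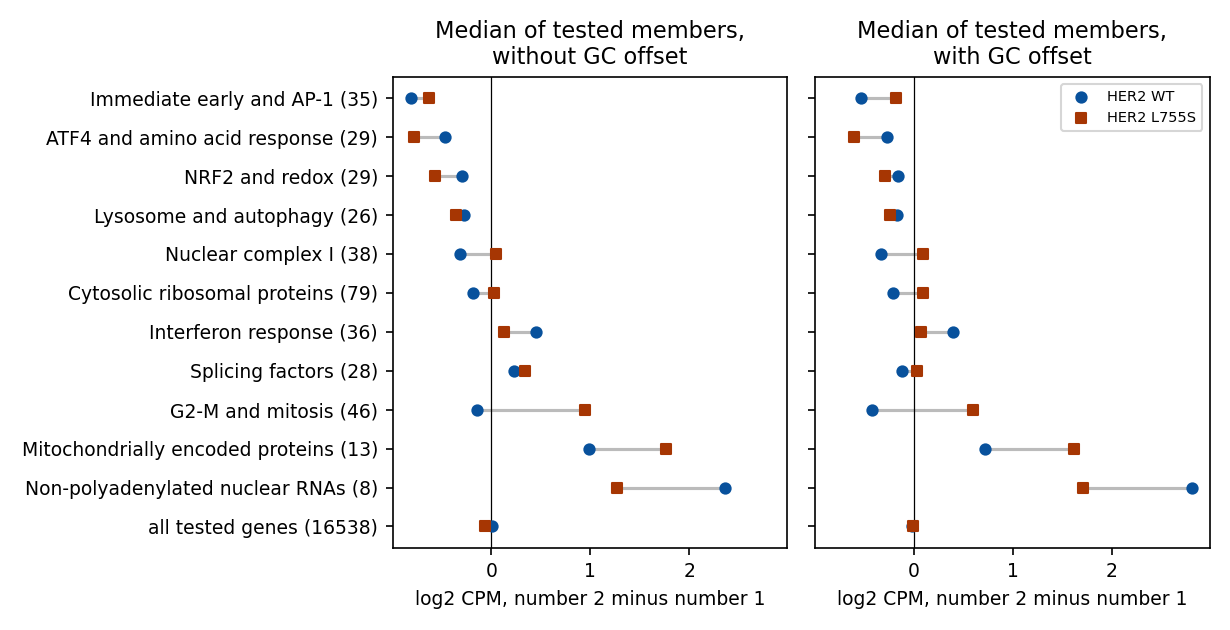
Median difference in log2 CPM of number 2 minus number 1 over the tested members of 11 lists (number of members in brackets) and over all tested genes, for HER2 WT (circles) and HER2 L755S (squares), without (left) and with (right) the GC offset. Mitochondrial and non-polyadenylated RNAs stay above 0 in both panels, splicing factors move to about 0, and the G2-M medians of the lines lie apart in both.

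Mitotic genes gave unlike values in the lines. Of 46 tested G2-M genes 15 rose and MYBL2 fell, beside 9.51% and 11.4% of all tested genes. Yet the median was -0.15 within HER2 WT and 0.94 within HER2 L755S, and 23 of the 46 had the same sign in both. The list's share of counts went from 0.439% to 0.388% between HER2 WT libraries and from 0.208% to 0.340% between HER2 L755S libraries. HER2 L755S 1 was thus the lowest of the 4 libraries. Whether the lines differed was not tested, since a model with that term leaves no residual degree of freedom. Using the GC offset 0 of 46 were called (3 higher and 1 lower at an unadjusted p under 0.05 in edgeR), and the medians were -0.42 and 0.60. The median of the fitted log2 fold changes was 0.40 without and 0.051 with the offset.

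CENPE, a kinetochore motor, had 54.3 and 24.5 CPM in number 1 and 89.9 and 91.2 CPM in number 2. It was higher in number 2 of both lines, by 0.73 in HER2 WT and 1.89 in HER2 L755S, with a log2 fold change of 1.31 (SE 0.22, edgeR adjusted p = 0.00032) and 0.62 with the offset. KIF18A, CENPF and ASPM rose by 1.05, 0.87 and 1.00 on the log2 scale, and had 0.39, 0.38 and 0.37 with the offset. The GC content of the 15 members that rose lay between 34.5% (CENPE) and 43.3% (NEK2). In the fifth of protein-coding genes with the lowest GC content, up to 42.9%, 39.8% were called higher. PLK1, the polo-like kinase, at a GC content of 57.1%, had 87.1 and 26.2 CPM against 35.7 and 30.3 CPM, or -1.29 within HER2 WT and 0.21 within HER2 L755S. PTTG1, securin, had 117 and 46.1 CPM against 62.3 and 88.8 CPM. MKI67 had 165 and 83.8 CPM against 183 and 130 CPM and was not called (log2 fold change 0.39, edgeR adjusted p = 0.14). Of 44 G1-S and replication genes CCNE2 and PRIM1 rose and CDT1, TK1, E2F1, MCM5 and MCM7 fell, near or under the shares of all tested genes (9.51% higher, 11.4% lower), and with the offset 0 were called (6 lower and 0 higher at an unadjusted p under 0.05 in edgeR).

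Of 28 splicing factor genes 7 rose (beside 9.51% of all tested genes) and 0 fell (also 0 at an unadjusted p under 0.05 in edgeR and 0 in DESeq2 and limma-voom), at a median of 0.31 that was -0.04 with the GC offset, where 0 were called (2 higher and 2 lower at an unadjusted p under 0.05 in edgeR). CLK1, a kinase of SR proteins, had 68.0 and 54.3 CPM in number 1 and 129 and 136 CPM in number 2, a log2 fold change of 1.12 (SE 0.19, edgeR adjusted p = 0.00029), or 0.52 with the offset. CLK4, PNISR and LUC7L3 rose by 0.86, 0.75 and 0.71, and had 0.29, 0.16 and 0.35 with the offset. Of 79 cytosolic ribosomal protein genes 8 rose and 13 fell, near the 9.51% and 11.4% of all tested genes, at a median of -0.08 (-0.06 with the offset). RPS15 had 562 and 545 CPM against 204 and 346 CPM, and RPL26 had 349 and 415 CPM against 542 and 895 CPM. Their log2 fold changes of -1.06 and 0.87 were -0.44 and 0.56 with the offset, where 0 of the 79 were called (4 higher and 8 lower at an unadjusted p under 0.05 in edgeR).

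Of 36 tested interferon-stimulated genes 8 rose (beside 9.51% of all tested genes), and IRF7 and ISG20 fell, at a median of 0.31 (0.45 in HER2 WT, 0.13 in HER2 L755S). In the fit with the GC offset 2 rose and 0 fell (9 higher and 1 lower at an unadjusted p under 0.05 in edgeR), and the median was 0.17. IFIT1, which binds foreign RNA ends, had 6.36 and 49.0 CPM in number 1 and 19.5 and 96.8 CPM in number 2. Each line was higher in number 2, the numbers overlapped, and the log2 fold change was 1.28 (SE 0.21, edgeR adjusted p = 0.00018), or 0.83 with the offset (edgeR adjusted p = 0.029). DDX60, IFIT5 and the RNA sensor IFIH1 rose by 1.05, 1.00 and 0.86, and with the offset had 0.44, 0.38 and 0.36 and were not called. IFITM1, an antiviral membrane protein with close paralogs, was at 27.5 and 12.7 CPM against 43.9 and 26.1 CPM, and was called in both fits.

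Receptors of this hormone-dependent tissue differed between numbers as well. ESR1 (chromosome 6, 151656691 to 152129619), the estrogen receptor, had 176 and 64.7 CPM in number 1 and 282 and 122 CPM in number 2. It was higher in number 2 of each line while the numbers overlapped, with a log2 fold change of 0.80 (SE 0.19, edgeR adjusted p = 0.0041) and 0.92 with the GC offset (edgeR adjusted p = 0.0065). GFRA1, a coreceptor of RET, had 8.37 and 10.5 CPM against 16.1 and 21.03 CPM. This gene, chosen after its values were seen, did not overlap between numbers and was called in both fits (0.97 without the offset). Of 36 estrogen receptor targets 5 rose and 4 fell, beside 9.51% and 11.4% of all tested genes. ERBB2 had 1934 and 2443 CPM against 1936 and 1203 CPM, or 0.00 within HER2 WT and -1.02 within HER2 L755S, and CCND1 had 6585 and 3348 CPM against 7020 and 2623 CPM. Neither was called (edgeR adjusted p = 0.20 and 0.82).

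Several of the largest changes lay in gene models that share reads with another. The gene model ENSG00000258377, antisense to MGAT2, had 0 counts in both number 1 libraries and 348 and 298 counts in number 2. Against a floor of 3 counts over both number 1 libraries it was at least 242-fold higher. MGAT2 itself had 18.4 and 21.1 CPM in number 1 and 4.03 and 14.7 CPM in number 2, and the sum of both models differed by -0.20 within HER2 WT and 0.32 within HER2 L755S. A second model of TMBIM4 stood at 5.16 and 7.21 CPM against 0 and 0.935 CPM, and the sum of the TMBIM4 models differed by -0.17 and 0.11. TECRP1, inside AFF1, likewise summed with it to 0.19 and -0.03. A second model of MATR3 had 15.5 and 3.90 CPM against 63.4 and 97.0 CPM, and its sum with the overlapping models still differed by 0.68 and 0.66. GS1-114I9.3, BLOC1S5-TXNDC5, RP11-229P13.23, SMIM11B, EIF3CL, HIST2H2AA4 and the mitochondrial pseudogene MTCO1P12 also share sequence or position with another gene, so their values are uncertain. Of the remaining genes among the 12 largest decreases, PCSK1N, an inhibitor of a prohormone convertase, had 36.7 and 15.4 CPM against 3.55 and 6.93 CPM. It fell by 2.24, PRR7 by 2.18 and C4orf48 by 2.17 on the log2 scale, and with the offset only PCSK1N of these 3 was called.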

How the data were processed

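RNA of 4 samples of MM134 cells, 2 per line, was measured from libraries made of 250 ng total RNA by poly(A) selection, per the labels' protocols. Per the file headers, the authors' tables are RSEM output. They hold an expected count per gene, an estimate that need not be whole, and TPM, FPKM and gene lengths deposited beside it, which no test used. STAR, edgeR and GRCh38 are named, without versions, in the submitters' processing notes, and the annotation release was not given in the sources used here.

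Expected counts were rounded, filtered with filterByExpr, scaled with TMM (factors 0.937 to 1.04) and tested with edgeR 4.0.16 (glmQLFit and glmQLFTest, two-sided, R 4.3.3) with terms for line and number, at a Benjamini-Hochberg adjusted p of 0.05 over 16538 genes. SE is the log2 fold change divided by the root of the F value. CPM of single genes use TMM-scaled totals. CPM sums of marker lists, and the single genes given beside the luminal sum, use unscaled totals. Within-line differences are in log2 CPM with a prior count of 0.5. GC content and positions are from GENCODE 29 on GRCh38, with GC known for 99.3% of tested genes. The GC offset is a smoothing spline with 6 degrees of freedom fitted in each library. Alternatives used DESeq2 1.42.0 and limma 3.58.1. The scripts were tested on simulated data.

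Members and lists were chosen with earlier results of these data known. Of 43 gene lists, all computed, 11 are described with members named by the rule below, and these were narrowed after their values were seen. Members of several other lists are named in the text as well. Named genes are a fixed group (EGR1, FOS, JUN, ATF3, ERBB2, ESR1, CCND1, MKI67, PLK1 and the 13 mitochondrial protein genes), the 12 higher and 12 lower called genes of largest log2 fold change with at least 5 CPM in the higher number, no overlap between numbers and a symbol, the 4 members of smallest adjusted p in each described list, and the 6 genes of at least 10 CPM in every library with the largest opposite differences in the lines. Some results are not reported here. Other named genes were chosen after their values were seen. DESeq2 without the line term, the GC offset, a GC and length offset and sums of overlapping gene models were added after the data were seen.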

Additional observations from a re-analysis of the deposited data

Results flagged for a closer look

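Some genes and list medians had opposite signs in the lines, though several of them hardly moved in 1 line. Each line has 1 library per number, so these differences between lines were not tested, and the values below are the difference between numbers within HER2 L755S minus that within HER2 WT, in log2 CPM. Medians of lists with at least 5 tested members are included. The bearing of transcript length on these medians was not tested.

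Among fixed genes, ATF3 differed by 1.18, PLK1 by 1.496, MT-ND3 by 1.19, ERBB2 by -1.02 and CCND1 by -0.44. Within HER2 WT alone ERBB2 had 0.0017 and CCND1 0.092. The 6 genes of opposite sign were chosen on these very values. STC2, which encodes the hormone stanniocalcin 2, went from 57.7 to 127 CPM between the HER2 WT libraries and from 29.7 to 14.96 CPM between the HER2 L755S libraries, a difference of -2.13. PTTG1 differed by 1.86 and FAM64A by 1.46, both mitotic genes that were lower in HER2 WT 2 and higher in HER2 L755S 2 than in number 1 of their line. CLSPN, claspin of the replication checkpoint, went from 17.6 to 31.02 CPM within HER2 WT and from 22.7 to 12.9 CPM within HER2 L755S, a difference of -1.63. RP11-466H18.1 differed by 1.88 and SRCAP by -1.78, and both overlap other gene models.

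Of the list medians, that of G2-M and mitosis differed by 1.09, metallothioneins and metal response by 0.84 and replication-dependent histones by 0.53. Nuclear complex I differed by 0.37 (0.052 within HER2 L755S), nuclear complexes II to V by 0.35 and mitochondrial ribosomal proteins by 0.25. Cytosolic ribosomal proteins differed by 0.21 (0.024 within HER2 L755S) and nuclear-retained RNAs by 0.14 (0.036 within HER2 L755S). In the other direction, matrix, TGF-beta and mesenchymal genes differed by -0.61, fatty acid and triglyceride synthesis by -0.58, estrogen receptor targets by -0.23 and ribosome biogenesis and MYC targets by -0.19.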

How the results depend on the processing

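The counts of 1572 higher and 1885 lower genes moved by over 1.5 times in at least one direction under several settings. They were 879 higher with no scaling, 1105 lower with the DESeq2 test, 1050 lower without chromosome M, 586 and 838 at an adjusted p of 0.01, 71 and 163 with glmTreat against a fold of 1.5, 113 and 99 with the GC offset, and 262 and 209 with the GC and length offset. With no replicate block, that is without the line, edgeR called 0 and 0 and DESeq2 412 and 395, and edgeR without the filter called 0 and 0, as it did in all 4 leave-one-out fits (range 0 to 0). Calls for the line, 2058, were 1214 at an adjusted p of 0.01 and 0 without the filter. DESeq2 size factors, limma-voom, the legacy edgeR fit and a filter of 50 counts kept both counts within 1.5 times.

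The percent of genes of the same sign in both lines, 72.5, was 77.7 at 5 CPM or more, 57.9 with the GC offset and 59.2 with both. The variance share of the number, 36.1%, was 43.8% at 5 CPM or more and 23.7% with the GC offset as well. The 100 highest genes took 21.1% of counts in each number 1 library, 24.9% in HER2 WT 2 and 28.9% in HER2 L755S 2, and without chromosome M 18.6% in HER2 WT 1, 18.8% in HER2 L755S 1, 18.9% in HER2 WT 2 and 19.2% in HER2 L755S 2.

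With no scaling the lysosome median was -0.32, the splicing median 0.23 and ATF3 -0.022. The GC offset took the immediate early median to -0.28, ATF4 to -0.39, NRF2 to -0.33, interferon to 0.17, G2-M to 0.051, nuclear complex I to -0.11 and splicing to -0.042, CCND1 to 0.47 and MT-ND3 to -0.18. A GC and length offset gave CCND1 0.43, MKI67 -0.087 and MT-ND3 -0.27. With the line left out and 1 library removed, the value ran from -0.87 to 0.53 for CCND1 (0.50 and 0.53 being its values of changed sign), -1.4 to 0.33 for PLK1, -0.073 to 0.90 for MKI67, -0.55 to 0.70 for ATF3, -0.15 to 0.88 for MT-ND3, -5.825 to 0.48 for NUPR1, -3.92 to 0.20 for AKR1C2, -0.49 to 3.19 for IFIT1 and -0.44 to 2.32 for IFIT5. By construction these fits set libraries of unequal line makeup against each other. The other causes were not tested.

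Genes below about 1 CPM rest on few counts. Each number has 2 libraries and the model 1 residual degree of freedom.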

Other observations

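Zinc finger genes named ZNF with a digit were a group picked after values were seen. Of 440 tested, 139 were called higher and 31 lower in number 2 by edgeR with Benjamini-Hochberg adjustment (beside 9.51% and 11.4% of all tested genes), at a median log2 fold change of 0.47 and a median GC content of 47.2%, against 50.3% over all tested genes. The median within HER2 WT was 0.55 and within HER2 L755S 0.36. After the GC offset 11 were called higher and 0 lower, and the medians were 0.34 and 0.23, against -0.02 and -0.01 over all tested genes. Whether transcript length or other features of these genes bear on this was not tested.

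The fibrillar collagen genes COL1A2 and COL3A1 were nearly silent in number 1 and detected at low level in number 2. COL1A2 had 0 and 6 counts in number 1 (HER2 WT first here and below) and 45 and 49 counts in number 2. COL3A1 had 1 and 0 counts in number 1 and 53 and 32 counts in number 2. COL1A1 went the other way, with 100 and 114 CPM in number 1 and 51.0 and 58.5 CPM in number 2. Other fibroblast markers were at few counts. LUM had 0 and 0 counts in number 1 and 2 and 2 in number 2, PDGFRA 0 and 0 against 4 and 3, and FAP 0 and 0 against 1 and 4. DCN had 1 and 2 counts against 2 and 4, PDGFRB 7 and 3 against 5 and 2, ACTA2 1 and 0 against 0 and 4, and THY1 was at 0 in all 4 libraries. Summed over the 17 fibroblast and endothelial markers, of which 4 were at 0 in all libraries, the level followed COL1A1, at 107 and 117 CPM in number 1 and 56.5 and 58.9 CPM in number 2. The part of cells other than MM134 in these counts was not tested.

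CLDN3, a tight junction gene, had 87.6 and 66.6 CPM in number 1 and 13.2 and 26.1 CPM in number 2, and was called with and without the GC offset (log2 fold change -1.01 and -2.04). NEAT1, a nuclear-retained RNA, had 81.3 and 117 CPM against 48.1 and 84.6 CPM, was lower in number 2 of each line and was called in both fits (-0.81 and -0.61).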
